A study of Mus musculus with 9 samples.

Results

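Mitochondrially encoded genes are the genes of the mitochondrion's own circular chromosome. They were taken as every gene whose mouse symbol starts with mt-, which gave 37 of the 53465 genes counted: 13 mRNAs, 2 rRNAs and 22 tRNAs. RNA was sequenced from 9 libraries of the infarct border zone of NOD-SCID mouse hearts, a strain that lacks functional T and B lymphocytes. The 3 groups of 3 libraries were hearts with sham surgery, hearts with coronary artery ligation, and hearts with coronary artery ligation that also received FOXO3-GE-MPCs, called the cell group here. The labels give no age, no time after surgery and no origin of the implanted cells, and in cell replicates 2 and 3 a further field spells the cells' name with FOXO4 and FOXO5. Nothing says that the libraries came from separate animals, so p-values measure only the spread between these libraries.

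The mitochondrial chromosome is transcribed from both strands into long precursors, which are cut at the tRNAs that lie between most of the other genes. Its mRNAs encode core subunits of respiratory complexes I, III and IV and of the ATP synthase, complex V, and its rRNAs form the mitochondrial ribosome. The nuclear polymerase Polrmt transcribes it together with the factors Tfam and Tfb2m. Cardiomyocytes are rich in mitochondria, so these transcripts are abundant in heart muscle RNA.

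Several of these genes have copies in the nuclear genome, so that reads of some genes cannot be told from reads of a copy. Sequences and coordinates are those of GENCODE M21 on the mm10 mouse genome, and sequences run 5′ to 3′. For every gene, the share of its 31-base words that also occur in an annotated nuclear transcript was computed, and 5 mRNAs had at least 98% of theirs in 1. Those 5 are mt-Co2, mt-Co3, mt-Atp6, mt-Nd3 and mt-Nd4l, and their copies lie side by side on chromosome 1 as annotated pseudogenes. The pair at chrM:7013-7696 (mt-Co2, 684 bases) and chr1:24614885-24615565 (Gm28661, minus strand) had 0 differences over 681 aligned bases, and both begin with the same 120 bases, shown because a read from them fits both places equally.
mt-Co2: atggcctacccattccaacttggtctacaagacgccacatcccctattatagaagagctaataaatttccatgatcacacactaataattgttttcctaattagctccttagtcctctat
Gm28661: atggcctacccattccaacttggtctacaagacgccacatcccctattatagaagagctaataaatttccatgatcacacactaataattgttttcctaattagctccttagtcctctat
The copy of mt-Nd3, Gm28438 at chr1:24612775-24613119, had 1 difference over 345 aligned bases. It is the substitution T3C, counted from 1 at the 5′ end of the gene, with the mitochondrial base written first, and it stands in capitals.
mt-Nd3: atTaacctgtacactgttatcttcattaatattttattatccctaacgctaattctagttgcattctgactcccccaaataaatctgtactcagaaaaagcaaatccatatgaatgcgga
Gm28438: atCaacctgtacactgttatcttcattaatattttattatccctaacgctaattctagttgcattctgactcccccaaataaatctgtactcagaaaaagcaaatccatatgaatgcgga
The copies of mt-Atp6 (Gm10925, 678 aligned bases), mt-Co3 (Gm28437, 783 aligned bases) and mt-Nd4l (Gm10222, 294 aligned bases) had 0 differences. A full-length copy of mt-Co1 on chromosome 2 is of another kind. Gm13340, at chr2:22588103-22589647, had 37 differences over 1545 aligned bases, of which C54A, A60G and G87A fall in the first 120 bases, shown in capitals.
mt-Co1: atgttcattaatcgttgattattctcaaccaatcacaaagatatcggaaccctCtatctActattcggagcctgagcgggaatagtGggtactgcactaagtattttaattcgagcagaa
Gm13340: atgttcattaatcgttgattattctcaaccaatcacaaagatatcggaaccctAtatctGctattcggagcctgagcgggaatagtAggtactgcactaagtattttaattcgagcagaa
Over all annotated nuclear genes, 63.9% of the words of mt-Co1 and 62.8% of those of mt-Nd4 were shared. The share was 16.8% for mt-Nd5, 13.5% for mt-Nd2, 7.47% for mt-Atp8, 7.36% for mt-Nd6, 6.55% for mt-Cytb and 2.71% for mt-Rnr2. It was 0 for mt-Nd1 and mt-Rnr1. The line for reads with more than 1 placement is listed at 0 in all 9 libraries, and how such reads were treated is not given in the sources used here.

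The libraries held 4549268 to 7515052 gene counts, the lowest in ligation replicate 1 and the highest in ligation replicate 3. Sham replicates 1 and 2 share a stem in the names of their count columns, as do ligation replicates 2 and 3. Every pair of replicates differed by more than sampling noise, so none was merged. A count of 3, taken as the smallest that can be read, equals 0.375 to 0.639 CPM (the gene's count relative to the TMM-scaled library size, a scaling that sets the typical gene to no change). With library totals in place of TMM, the median log2 change of all genes was 0.20 for ligation against sham (0.01 with TMM), -0.03 for cells against ligation alone (0.00 with TMM) and 0.15 for cells against sham (-0.01 with TMM). Changes given here are relative to the typical gene, and the 3 comparisons share their libraries. In bulk RNA, fewer cells of a type and less RNA per cell cannot be told apart.

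As a class, the mitochondrial genes took a smaller share of gene counts in both ligated groups than in sham. The mRNAs made up 19.4%, 18.6% and 19.2% of gene counts in sham, 13.6%, 12.8% and 12.2% after ligation, and 14.0%, 13.9% and 13.9% with cells. The 3 ranges did not overlap: sham was highest, ligation lowest, and the cell group lay just above ligation. All 37 genes together took 19.6% ± 0.417 (SD, n = 3) in sham, 13.2% ± 0.695 after ligation and 14.3% ± 0.0366 with cells. The rRNAs, the structural RNAs of the mitochondrial ribosome, made up 0.490% ± 0.0335, 0.303% ± 0.0158 and 0.351% ± 0.0150. For each of these 3 quantities every pair of groups gave p = 0.1 in an exact two-sided permutation test, the smallest that 3 against 3 libraries allow (0.109 after Benjamini-Hochberg adjustment over 12 tests). The tRNAs made up 0.0214% ± 0.00108 in sham, 0.0149% ± 0.00126 after ligation and 0.0147% ± 0.000637 with cells, and the last 2 overlapped (exact p = 0.8).

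**Figure D1:**
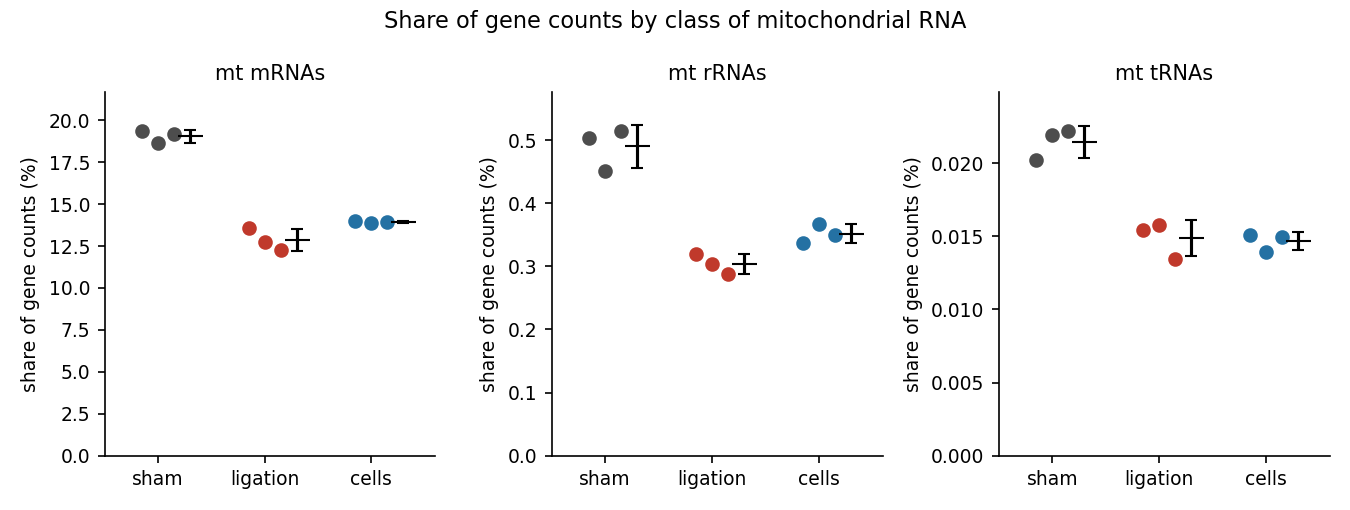
Share of all gene counts, in percent, taken by mitochondrial mRNAs, rRNAs and tRNAs (panels) in each library of the 3 groups; points are libraries, and the black mark and bar are the mean and SD of 3. Sham lies above both ligated groups in all panels, and the cell group lies above ligation for mRNAs and rRNAs but not for tRNAs.

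Of the 37 genes, 16 had enough counts to be tested: the 13 mRNAs, both rRNAs and mt-Tp. Against all genes, 12 of the 16 were lower after ligation than in sham and 0 were higher (edgeR's quasi-likelihood test, adjusted p under 0.05 over 13825 genes). Of all genes tested, 38.2% passed, 18% lower and 20.1% higher. The count higher was also 0 at an unadjusted p under 0.05 and by DESeq2's Wald test. The median log2 fold change of the 16 was -0.77, against 0.01 for all genes tested. mt-Atp6, mt-Atp8, mt-Co2 and mt-Nd4l were not past the threshold. Between cells and ligation, 4 of the 16 were higher and 1 was lower, where 9.87% of all genes passed, 4.19% higher and 5.69% lower. DESeq2's Wald test gave 4 higher and 0 lower there, with 443 and 618 of all genes. Against sham, 13 of the 16 were lower in the cell group and 0 were higher (also 0 at an unadjusted p under 0.05 and by DESeq2), again with a median of -0.77. Of all genes, 40.9% passed in that comparison, 20% lower and 21% higher. Without ligation replicate 1, 8 of the 16 were higher in cells than after ligation and 0 lower. In that fit 531 of all 14062 genes tested were higher and 721 lower.

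Among the complex I mRNAs, mt-Nd1 (chrM:2751-3707), a membrane subunit next to the quinone site, had 28940, 25884 and 27991 CPM in sham, 16644, 14315 and 13309 after ligation, and 15425, 16391 and 14726 with cells. Sham stood apart, while the ligated groups overlapped. mt-Nd1 fell by 0.90 on the log2 scale after ligation (SE 0.056, edgeR adjusted p 5.94e-11), and cells against ligation was 0.07 (SE 0.055, edgeR adjusted p 0.486). Leaving out ligation replicate 1, the highest of its group, raised that difference to 0.17 (edgeR adjusted p 0.0122). mt-Nd2, mt-Nd4 and mt-Nd5, which encode proton-pumping subunits of the membrane arm, fell by 0.75, 0.79 and 0.82 on the log2 scale after ligation. With cells, mt-Nd5 (chrM:11742-13565) alone among the 7 complex I mRNAs was higher than in ligation: 8047, 8508 and 7941 CPM against 7680, 7103 and 6911, a log2 difference of 0.18 (SE 0.036, edgeR adjusted p 0.00264). mt-Nd2 differed by 0.16 (edgeR adjusted p 0.0902) and by 0.25 without ligation replicate 1 (edgeR adjusted p 0.00052), and mt-Nd4 by 0.08 and 0.14 (edgeR adjusted p 0.241 and 0.00352).

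mt-Nd6 (chrM:13552-14070) is the only mRNA on the other strand. Its level was 3164, 2572 and 2981 CPM in sham, 2006, 1471 and 1274 after ligation and 1393, 1716 and 1368 with cells, so that ligation replicate 1 was its highest library outside sham. mt-Nd6 fell by 0.88 on the log2 scale after ligation (SE 0.112, edgeR adjusted p 2.62e-06). The difference between cells and ligation was -0.08 (SE 0.112, edgeR adjusted p 0.719), and it was 0.12 without ligation replicate 1 (edgeR adjusted p 0.446).

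The highest level per length belonged to mt-Co1 (chrM:5328-6872), the catalytic subunit of complex IV, at 55553 CPM per kb in sham. It had 84780, 86461 and 86249 CPM in sham, 54311, 52682 and 51383 after ligation, and 61025, 59370 and 61088 in the cell group, 3 ranges with no overlap. mt-Co1 fell by 0.70 on the log2 scale after ligation (SE 0.019, edgeR adjusted p 1.51e-16) and was 0.20 higher with cells than with ligation alone (SE 0.019, edgeR adjusted p 4.43e-07). mt-Cytb (chrM:14145-15288), the only complex III subunit made in the mitochondrion, followed at 32513 CPM per kb in sham. It had 37513, 36827 and 37246 CPM in sham, 23758, 22032 and 20430 after ligation, and 24971, 24932 and 24373 with cells. Every cell library lay above every ligation library, and every sham library above both. mt-Cytb fell by 0.75 on the log2 scale after ligation (SE 0.034, edgeR adjusted p 4.4e-13) and was 0.17 higher with cells (SE 0.034, edgeR adjusted p 0.00245).

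After mt-Co1 and mt-Cytb, the order of level per length in sham was mt-Nd1 (28845 CPM per kb), mt-Nd2 (16441), mt-Nd4 (14556), mt-Nd5 (7004) and mt-Nd6 (5599). mt-Rnr2 (2144) and mt-Rnr1 (2019) came below these mRNAs, and the libraries of the 2 rRNAs overlapped. The 5 mRNAs with whole nuclear copies lay at 122 to 1795 CPM per kb in sham, and mt-Atp8 at 27.0. How reads that fit both a gene and its copy were treated is not given. The levels of these 5, and their place in the order, are therefore uncertain.

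The rRNA of the small ribosomal subunit, mt-Rnr1 (12S; chrM:70-1024), had 1989, 1784 and 2013 CPM in sham, 1016, 915 and 844 after ligation, and 956, 1062 and 969 with cells. mt-Rnr1 fell by 1.06 on the log2 scale after ligation (SE 0.059, edgeR adjusted p 1.22e-11), and the ligated groups overlapped (0.11, edgeR adjusted p 0.295). Without ligation replicate 1, mt-Rnr1 was 0.18 higher with cells (edgeR adjusted p 0.0459). The rRNA of the large subunit, mt-Rnr2 (16S; chrM:1094-2675), had 3506, 3096 and 3575 CPM in sham, 2076, 1974 and 1857 after ligation, and 2323, 2527 and 2420 in the cell group, with no overlap. mt-Rnr2 fell by 0.78 on the log2 scale after ligation (SE 0.049, edgeR adjusted p 6.9e-11) and was 0.30 higher with cells (SE 0.049, edgeR adjusted p 0.000274).

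The tRNAs were nearly absent from the counts. Of the 22, 18 had 0 counts in every library, so that each lies under 0.375 to 0.639 CPM there, and mt-Tc, mt-Tn and mt-Te had at most 3, 1 and 1 counts in a library. Each tRNA gene is 59 to 75 bases long. mt-Tp (chrM:15356-15422, minus strand), the proline tRNA at the edge of the control region, was the exception, and it has no other gene between it and the end of the annotated chromosome. Its sequence is given because it is the only tRNA with counts in every library.
mt-Tp: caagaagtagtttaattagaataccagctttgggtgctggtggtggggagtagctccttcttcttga
mt-Tp had 220, 237 and 241 CPM in sham, 149, 150 and 126 after ligation, and 146, 136 and 145 with cells. mt-Tp fell by 0.72 on the log2 scale after ligation (SE 0.066, edgeR adjusted p 2.72e-08), and the ligated groups overlapped, with a log2 difference of 0.01 (edgeR adjusted p 0.962). Whether these reads come from the tRNA or from longer RNA that crosses it was not tested.

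**Figure D2:**
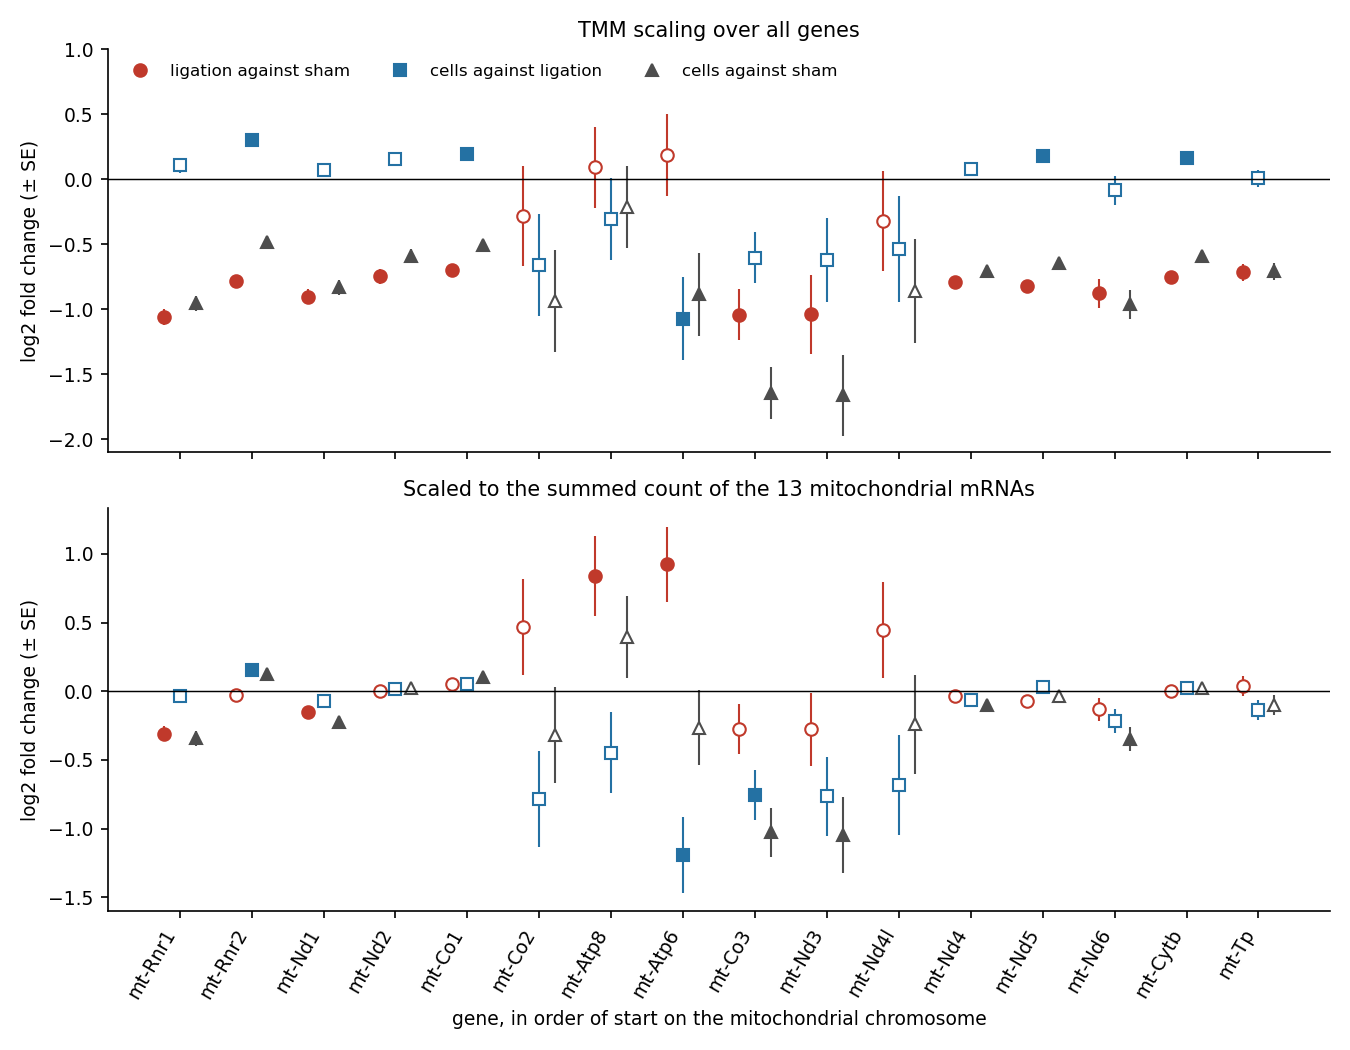
Log2 fold change with its SE (vertical axis) of the 16 tested mitochondrial genes in the order of their start positions, by TMM scaling over all genes (upper panel) and scaled to the summed count of the 13 mitochondrial mRNAs (lower panel); filled marks have an edgeR adjusted p under 0.05. In the upper panel most genes lie between -0.70 and -1.06 for ligation against sham, and the wide error bars belong to the genes from mt-Co2 to mt-Nd4l.

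The 5 mRNAs with whole nuclear copies differed in how far their libraries spread. mt-Co2, the copper-binding subunit of complex IV, had 2308, 789 and 586 CPM in sham, 1327, 938 and 765 after ligation, and 481, 310 and 1128 with cells. No group stood apart from another. mt-Atp6, the proton-channel subunit of the ATP synthase, had 1218, 465 and 356 CPM in sham, 1229, 591 and 508 after ligation, and 330, 394 and 378 with cells. Replicate 1 was far above the rest in both sham and ligation. mt-Co3, another core subunit of complex IV, had 1774, 722 and 1567 CPM in sham, 578, 788 and 604 after ligation, and 481, 368 and 448 with cells. Its cell libraries lay below all others. mt-Nd3 (69.9 to 241 CPM in sham) and mt-Nd4l (9.56 to 70.8 CPM in sham), both small subunits of complex I, were lower still.

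Within sham, the SD of log2 CPM was 0.70 to 1.45 for these 5 genes, against 0.01 to 0.15 for the other mRNAs except mt-Atp8 (0.46). The ranges overlapped after ligation (0.24 to 0.68 against 0.04 to 0.33) and with cells (0.13 to 0.95 against 0.02 to 0.18), where mt-Nd6 spread more than mt-Co3 and more than mt-Atp6 and mt-Nd4l, respectively. mt-Atp8, left out of these ranges, was at 0.75 after ligation, above all 5 copied genes, and at 0.07 with cells. Gm28661, the copy of mt-Co2, had 348, 448 and 346 CPM in sham, 148, 161 and 168 after ligation, and 206, 124 and 175 with cells. Its sham libraries lay above all others. mt-Co3 and mt-Nd3 fell by 1.04 and 1.04 on the log2 scale after ligation (edgeR adjusted p 0.000251 and 0.00929). The mt-Nd3 call was lost without sham replicate 1 (-0.46, edgeR adjusted p 0.157) and without ligation replicate 3. mt-Atp6 was 1.07 lower on the log2 scale in cells than in ligation (-1.07, SE 0.318, edgeR adjusted p 0.0361), and -0.58 without ligation replicate 1 (edgeR adjusted p 0.254). This call was also lost without any single cell replicate and by DESeq2's Wald test. In cells against sham, mt-Atp6 was at -0.89 (edgeR adjusted p 0.0309), and at -0.16 without sham replicate 1 (edgeR adjusted p 0.62). Without sham replicate 1, mt-Atp6 was 0.91 higher in ligation than in sham (edgeR adjusted p 0.00472; 0.19 and 0.679 with all libraries), and the signs of mt-Co2 (-0.28, then 0.55) and mt-Nd4l (-0.32, then 0.58) turned. With the counts of gene and copy summed, an alternative chosen after seeing the data, mt-Co3 and mt-Nd3 were at -1.15 and -1.01 in ligation against sham (edgeR adjusted p 4.12e-06 and 7.78e-06) and mt-Atp6 at -0.70 in cells against ligation (edgeR adjusted p 0.0412). In cells against ligation mt-Nd3 moved from -0.62 to -0.05, and in cells against sham from -1.66 to -1.06. In cells against sham, mt-Co2 and mt-Nd4l were then also called lower (edgeR adjusted p 0.0135 and 0.0271). This made 15 of the 16 lower there, where 2763 of 13820 genes were lower. Whether the placement of reads between copies sets these values was not tested.

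mt-Atp8 (chrM:7766-7969), a small subunit gene of the ATP synthase, overlaps mt-Atp6 by 43 bases. It had 24 to 45 counts per library and 27.0, 30.2 and 23.1 CPM per kb in sham, ligation and cells. Its log2 differences were 0.09, -0.31 and -0.21 in the 3 comparisons, none past the threshold (edgeR adjusted p 0.623 to 0.848). The share of reads that fell between overlapping genes, 8.09% to 8.72% of reads per library, was not assigned to any gene.

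**Figure D3:**
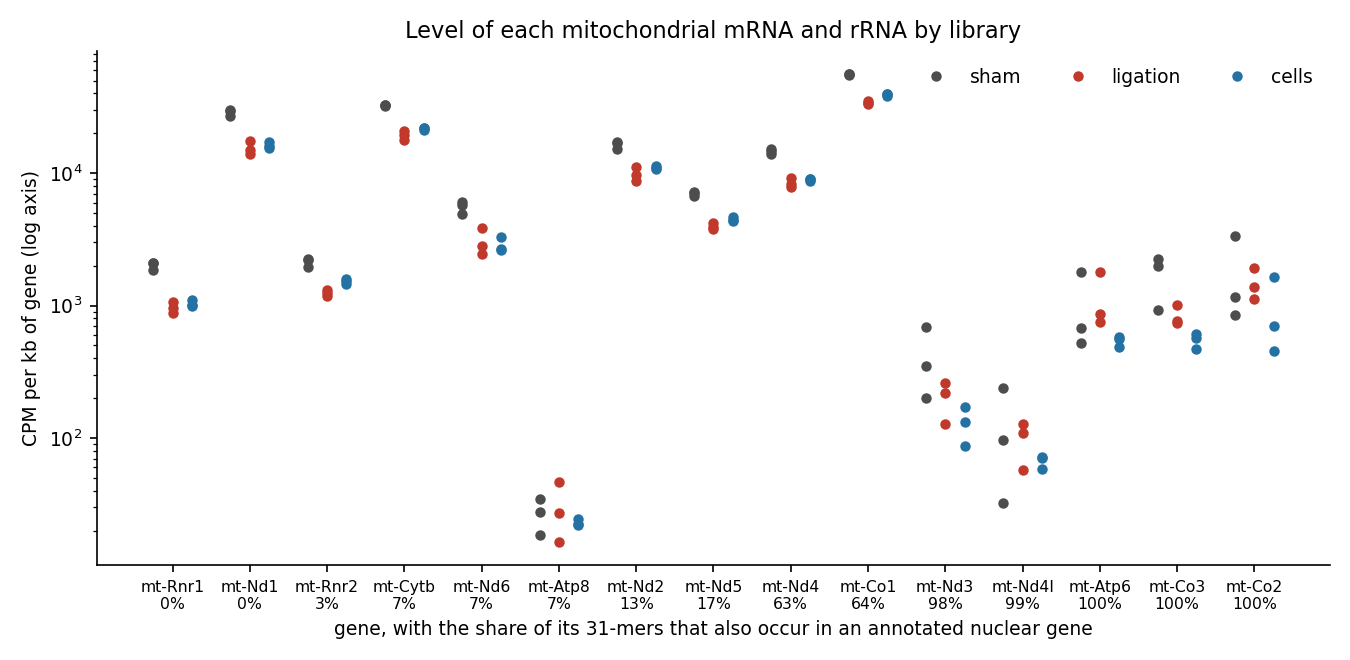
Level of each mitochondrial mRNA and rRNA in every library, in CPM per kb on a log axis, with genes ordered by the share of their 31-base words found in an annotated nuclear gene (printed under each name); colours are the groups. The 5 genes at 98% or more stand on the right; in sham they are more scattered than the genes to their left, while in the other groups the spread of some of them is within that of mt-Nd6.

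Relative to the summed mitochondrial mRNAs, fewer members passed the threshold. The sum includes the tested mRNA itself, which understates the change of a large member such as mt-Co1. With the summed count of the 13 mRNAs as the library size, 2 of the 16 genes were higher after ligation (mt-Atp6, 0.92, and mt-Atp8, 0.84) and 2 lower (mt-Rnr1, -0.31, and mt-Nd1, -0.15), where 82.4% of all genes tested passed, 81.2% higher and 1.19% lower, by edgeR. Both ATP synthase calls were lost without ligation replicate 1, and that of mt-Atp8 also without sham replicate 3. mt-Atp6 was at 1.62 without sham replicate 1, where mt-Co2 (1.27) and mt-Nd4l (1.33) were also called higher, and at 0.61 with the counts of gene and copy summed (edgeR adjusted p 0.00354). mt-Co1, mt-Cytb, mt-Nd2, mt-Nd4 and mt-Nd5 differed by -0.07 to 0.05 on this scale. Without ligation replicate 1, mt-Co1 was called higher (0.08, edgeR adjusted p 0.00169) and mt-Nd6 lower (-0.28, edgeR adjusted p 0.00177). In cells against ligation 1 was higher (mt-Rnr2, 0.16) and 2 were lower (mt-Atp6, -1.19, and mt-Co3, -0.75), where 15% of all genes passed, 1.06% higher and 13.9% lower. DESeq2 called 1 higher and 0 lower there, and edgeR scaled to the geometric mean of the mt mRNAs called 0 higher and 4 lower. Of all 13825 genes, DESeq2 called 117 higher and 1583 lower, and the geometric mean scaling 110 and 679. The mt-Rnr2 call was lost without cell replicate 2, cell replicate 3 or ligation replicate 2, and mt-Atp6 was at -0.77 without ligation replicate 1 (edgeR adjusted p 0.043). Against sham, the cell group had 2 higher (mt-Co1, 0.10, and mt-Rnr2, 0.13) and 6 lower (mt-Co3, -1.03, mt-Nd3, -1.04, mt-Nd1, -0.22, mt-Nd4, -0.10, mt-Nd6, -0.35, and mt-Rnr1, -0.34), where 72.7% of all genes passed, 70.1% higher and 2.52% lower. The mt-Nd3 call was lost without sham replicate 1 (-0.48), mt-Nd3 was at -0.44 with the counts of gene and copy summed (edgeR adjusted p 0.003), and the mt-Rnr2 call without cell replicate 2, cell replicate 3 or sham replicate 2.

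mt-Co1 took 41.5% ± 1.43 (SD, n = 3) of mitochondrial mRNA counts in sham, 43.1% ± 1.73 after ligation and 44.6% ± 0.815 with cells. mt-Nd1 took 13.3% ± 0.423, 11.99% ± 0.566 and 11.4% ± 0.584, with sham above both ligated groups. The group means of mt-Cytb were 18.0% to 18.3% of the pool. Of 39 exact permutation tests of a gene against the other 12 mRNAs, 10 reached p = 0.1, the smallest possible, and the smallest after Benjamini-Hochberg adjustment was 0.39.

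The light-strand mRNA mt-Nd6 was counted at 0.0142 ± 0.00115 (SD, n = 3) per count of the other mRNAs in sham, 0.0130 ± 0.00222 after ligation and 0.0111 ± 0.00144 with cells. Only cells against sham had no overlap (exact p = 0.1, 0.3 after adjustment over 21 ratios). Complex I mRNAs stood at 0.638 ± 0.0282 of the others in sham, 0.587 ± 0.0315 after ligation and 0.564 ± 0.0243 with cells. Complex IV mRNAs stood at 0.747 ± 0.0271, 0.800 ± 0.0519 and 0.833 ± 0.0376, and both ratios separated cells from sham alone (exact p = 0.1, 0.3 after adjustment). With geometric means of the members in place of sums, which weigh the copied genes equally, the complex IV difference turned sign in all 3 comparisons. The complex V ratio rests on mt-Atp6 and mt-Atp8 and is not read further.

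The 2 rRNA genes lie next to each other with 1 tRNA gene between them. The ratio of mt-Rnr1 to mt-Rnr2 counts was 0.567, 0.576 and 0.563 in sham, 0.489, 0.463 and 0.454 after ligation, and 0.411, 0.420 and 0.400 with cells. The 3 ranges did not overlap, and the cell group lay farther from sham than ligation did. Each pair gave exact p = 0.1 (0.15 after adjustment over 9 ratios), and this ratio was chosen after its values were seen. The summed rRNA count per mRNA count was 0.0257 ± 0.00131 (SD, n = 3) in sham, 0.0236 ± 0.000159 after ligation and 0.0252 ± 0.00115 with cells. Ligation lay below both other groups (exact p = 0.1, 0.3 after adjustment over 21 ratios), which overlapped each other.

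**Figure D4:**
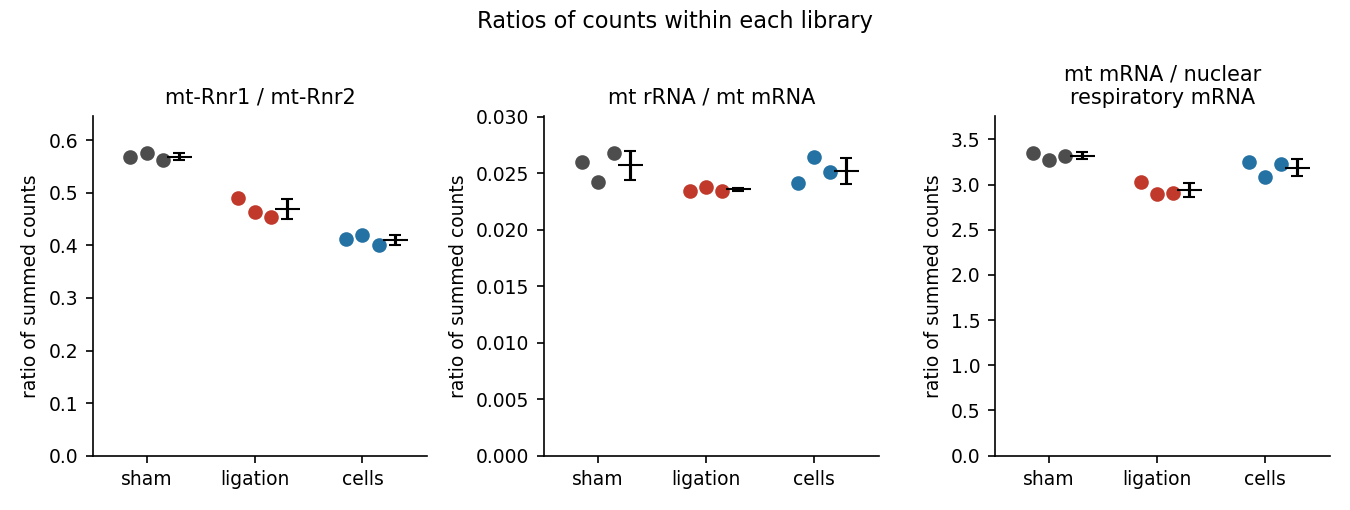
Ratios of counts within each library: mt-Rnr1 to mt-Rnr2, mitochondrial rRNA to mRNA, and mitochondrial mRNA to nuclear-encoded mRNA of the respiratory complexes; points are libraries, and the black mark and bar are the mean and SD of 3. The first ratio steps down from sham to ligation to cells without overlap, and in the others ligation is lowest.

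Most nuclear subunit genes of the respiratory chain were also lower after ligation. Of 76 such genes of complexes I to V, 4 of them in complex II, which has no mitochondrially encoded subunit, 73 were lower and 1 higher than in sham (median -0.66), and 73 were lower and 1 higher in cells than in sham (median -0.65). Of all genes, 18% were lower and 20.1% higher in the first of these comparisons, and 20% and 21% in the second. In cells against ligation alone, 4 were higher and 2 lower (median 0.03), near the 9.87% of all genes called in that comparison. Per count of these nuclear subunits, the mitochondrial mRNAs had 3.32 ± 0.0381 counts (SD, n = 3) in sham, 2.94 ± 0.0777 after ligation and 3.19 ± 0.0924 with cells. Per count of 10 cardiomyocyte markers they had 3.35 ± 0.113, 2.64 ± 0.121 and 2.96 ± 0.0219. All 6 pairs gave exact p = 0.1 (0.1 after adjustment), and ligation was lowest on both scales without overlap. With the median over the marker genes in place of their sum, the log2 ratio to cardiomyocyte markers in cells against sham turned from -0.18 to 0.11.

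Sums of cell-type markers also differed between the groups. The 10 cardiomyocyte markers summed to 61112 to 62518 CPM in sham, 45343 to 47513 after ligation and 45429 to 46345 with cells. The 8 macrophage and leukocyte markers summed to 447 to 479, 861 to 898 and 357 to 373 CPM, the 8 fibroblast markers to 2300 to 2355, 4280 to 4376 and 3993 to 4100 CPM. The 6 endothelial markers summed to 1891 to 1996, 1249 to 1329 and 1356 to 1394 CPM and the 5 erythroid markers to 871 to 919, 1496 to 1595 and 663 to 680 CPM. Of all genes tested, 20.1% were higher and 18% lower after ligation than in sham. Of the 5 erythroid markers 4 were higher and 1 lower after ligation. The one that was lower, Hba-a2, was at -5.07 there and at -5.55 in cells against sham, and it is a near-identical copy of Hba-a1, so its value is uncertain. Every gene of the 5 marker lists passed the count filter. Beside the same shares of all genes, 8 of the 10 cardiomyocyte markers were lower and 1 higher after ligation. The endothelial list had 6 lower and 0 higher, the fibroblast list 1 and 6, and the macrophage and leukocyte list 0 and 7. The part of cell composition in the mitochondrial values was not tested.

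Of 22 nuclear genes for transcription and DNA upkeep of the mitochondrial chromosome, 1 was higher and 7 lower after ligation (edgeR, TMM scaling; 3 and 2 with library totals). Of all genes tested, 38.2% passed in that comparison, 20.1% higher and 18% lower. With TMM the total called is near the background, but more of the 22 were lower than higher, unlike all genes. With library totals 45.6% of all genes passed, 35.9% higher and 9.74% lower. Tfam, which packages the DNA and starts transcription, had 43.8, 47.3 and 48.9 CPM in sham, 35.8, 37.9 and 39.9 after ligation, and 45.7, 46.2 and 50.9 with cells. On this scale ligation lay below both other groups: Tfam fell by 0.30 on the log2 scale after ligation (edgeR adjusted p 0.00706), was 0.32 higher with cells than with ligation alone (edgeR adjusted p 0.0124), and differed by 0.03 from sham with cells (edgeR adjusted p 0.816). With library totals Tfam was at -0.11 in ligation against sham (edgeR adjusted p 0.327), which ends that call, at 0.29 in cells against ligation (edgeR adjusted p 0.0287) and at 0.19 in cells against sham (edgeR adjusted p 0.0725). The Tfam difference between cells and ligation was 0.27 to 0.36 in the 9 fits without 1 library, and it missed the threshold without cell replicate 3, ligation replicate 1 or ligation replicate 2. Tfb2m, its partner at the promoter, went the other way, 0.36 higher after ligation (edgeR adjusted p 0.000369; 0.55 with library totals) and -0.22 in cells against ligation (edgeR adjusted p 0.0423). The Tfb2m difference between cells and ligation was -0.23 to -0.21 in the 9 fits without 1 library and missed the threshold in 7 of them. Polrmt fell by 0.31 on the log2 scale after ligation (edgeR adjusted p 0.021). The call was lost with library totals (-0.13, edgeR adjusted p 0.361) and in each of the fits without ligation replicate 1 or 2 or sham replicate 1 or 2 (-0.27 to -0.43 over all fits without 1 library).

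Of 28 tested genes for RNA cutting, tailing and stability, 2 were higher and 8 lower after ligation (7 and 5 with library totals). With TMM the total is again near the 38.2% of all genes called, but with more lower than higher, unlike all genes. Lrpprc, which stabilises the mRNAs, fell by 0.61 on the log2 scale (edgeR adjusted p 1.3e-06) and was not past the threshold in cells against ligation (0.18, edgeR adjusted p 0.151). Hsd17b10, a part of the enzyme that cuts tRNA 5′ ends, fell by 0.52 (edgeR adjusted p 1.15e-06; -0.34 with library totals). Of 16 translation factors, 7 were lower after ligation (3 with library totals, where 2 were higher), among them Tufm, the elongation factor, which fell by 0.53 on the log2 scale (edgeR adjusted p 3.84e-07; -0.34 with library totals). Of 77 mitoribosomal protein genes, 65 were lower and 1 higher after ligation, where 18% of all genes were lower (43 and 1 with library totals, where 9.74% of all genes were lower). Mrpl55, Mrps35 and Mrpl45 fell by 1.01, 0.85 and 0.88 on the log2 scale.

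With cells against ligation, where 4.19% of all genes were higher and 5.69% lower, the counts were 3 higher and 1 lower for transcription and upkeep, 2 and 1 for RNA processing, 1 higher for translation factors, and 4 higher for mitoribosomal proteins. Beside Tfam these included Rrm2b, a ribonucleotide reductase subunit that supplies DNA precursors, at 0.37, and Tefm, an elongation factor of the polymerase, at 0.36 (edgeR adjusted p 0.0101 and 0.0447). The Tefm call was lost with library totals (0.33, edgeR adjusted p 0.0732). Against sham, the cell group had 2 higher and 2 lower (5 and 0 with library totals), 4 and 8 (7 and 5), 3 and 5 (4 and 2) and 2 and 58 (2 and 42) in the same order. Of all genes, 21% were higher and 20% lower in that comparison, and with library totals 45.7% passed, 33.4% higher and 12.3% lower. In cells against ligation the share of all genes that passed with library totals was 9.84%, 3.17% higher and 6.68% lower.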

How the data were processed

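RNA was measured in 9 libraries, 3 per group. The sample titles give each library's group and number. TRIzol was used for extraction and a NEBNext Ultra kit for the libraries, per the labels' protocols. The authors deposited unnormalized counts of reads by gene; the build is mm10 per the submitters' processing notes, and the aligner, counter and strand setting are not given in the sources used here. Lines that name no gene were left out of totals and tests; reads outside genes were 4.14% to 4.91% of reads and ambiguous reads 8.09% to 8.72%.

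Symbols, coordinates and transcript sequences came from GENCODE M21, and matched 53274 of 53465 gene IDs and all 37 mitochondrial genes. Counts were fitted in R 4.3.3 with edgeR 4.0.16 (filterByExpr, TMM, estimateDisp, glmQLFit, glmQLFTest) over 9 libraries with a mean per group and 6 residual degrees of freedom. A second fit used the summed mitochondrial mRNA count as library size. P-values were adjusted over 13825 genes with the Benjamini-Hochberg method, at 0.05. SE is the size of the log2 fold change divided by the root of F. Shares and ratios were compared with exact two-sided permutation tests. Alternatives covered scaling, filters, DESeq2 1.42.0, 2-group fits, a replicate block and leaving out each library. Summing libraries of a shared column stem, adding the counts of nuclear copies and the last set of ratios were chosen after seeing the data. Both fits were run on simulated counts with a common spread, in which 200 nuclear genes and no mitochondrial gene were changed. The TMM fit recovered 178 with 9 false calls and the fit to mitochondrial mRNA 175 with 6, and both gave 0 false calls when none was changed. The simulation holds no fall of the mitochondrial share and no wide spread of copied genes, so it cannot show how the fits behave there. All mitochondrial mRNAs and rRNAs, and mt-Tp, are named; from nuclear lists, the 3 smallest adjusted p-values in each direction could be named, and Polrmt, Tfam, Tfb2m, Lrpprc and Slirp whatever their values. Slirp had too few counts to be tested. The members, lists and tests were chosen with earlier results of these data known. The floor of 3 counts reflects counting error alone, and no molecular identifiers are described for these reads. Figures were drawn with matplotlib 3.10.9.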

Additional observations from a re-analysis of the deposited data

Results flagged for a closer look

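Reads that fell outside annotated genes entered no comparison. They made up 4.75% ± 0.155 of reads (SD, n = 3) in ligation, 4.21% ± 0.0350 in sham and 4.22% ± 0.113 in the cell group, and every ligation library lay above every sham library.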

How the results depend on the processing

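Leaving out 1 library at a time changed no direction for mt-Co1, mt-Cytb, mt-Nd5, mt-Rnr1 or mt-Rnr2 against all genes, nor for the mt-Rnr1 to mt-Rnr2 ratio. For the values that did turn or move, the cause was not tested, and ranges over the fits without 1 library are given in the order lowest to highest. Log2 ratios ran from -0.0122 to 0.0149 (complex III, ligation against sham), -0.43 to 0.447 (complex V, cells against sham), -0.0679 to 0.00472 (rRNA to mRNA, cells against sham), -0.0159 to 0.0749 (tRNA to mRNA, ligation against sham) and -0.142 to 0.128 (nuclear copies, cells against ligation). The tRNA share differed by -0.000939 to 0.000228 percentage points between cells and ligation. Genes ran from -0.31 to 0.91 (mt-Atp6, ligation against sham), -0.63 to 0.10, -0.43 to 0.00509 and -0.32 to 0.40 (mt-Atp8, cells against ligation, cells against sham, ligation against sham), -0.62 to 0.55 (mt-Co2, ligation against sham), -1.32 to 0.0411 and -0.78 to 0.58 (mt-Nd4l, cells against sham, ligation against sham), -0.22 to 0.12 and -0.0727 to 0.0514 (mt-Nd6 and mt-Tp, cells against ligation) and -0.0235 to 0.0612 (Tfam, cells against sham).

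Counts of mitochondrial genes called against all genes ran from 4 to 8 higher and 0 to 2 lower (cells against ligation) and 0 to 1 higher (ligation against sham). Of all 14062 to 14116 genes tested in these fits, 364 to 587 were higher and 587 to 811 lower in cells against ligation. In ligation against sham 2221 to 2885 were higher and 2169 to 2574 lower, and in cells against sham 2560 to 2916 and 2461 to 2938. Relative to mitochondrial mRNA, the counts of mitochondrial genes ran from 0 to 1 higher and 2 to 4 lower (cells against ligation), 1 to 4 higher (cells against sham), and 1 to 4 higher and 2 to 4 lower (ligation against sham). Of all genes, 103 to 155 were higher and 966 to 3000 lower on that scale in cells against ligation. The counts were 9132 to 9845 higher in cells against sham, and 10503 to 11353 higher and 160 to 192 lower in ligation against sham. Ratios of 1 mRNA to the others without overlap numbered 10 to 16. For the nuclear lists, cells against ligation gave 1 to 4 higher and 0 to 1 lower (mitoribosomal), 1 to 3 and 0 to 1 (RNA processing), 1 to 3 and 0 to 1 (transcription) and 0 to 2 higher (translation). Ligation against sham gave 1 to 2 higher (RNA processing), 4 to 8 lower (transcription) and 0 to 1 higher (translation), and cells against sham 1 to 2 higher and 0 to 2 lower (transcription).

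Geometric means of members turned the log2 ratios of complex I (0.28) and mt-Nd6 (0.18) in cells against ligation, complex IV (-0.24 in cells against ligation, -0.27 in cells against sham, -0.0282 in ligation against sham), complex V (0.41) and rRNA to mRNA (0.0596) in cells against sham, and tRNA to mRNA (0.24, 0.0706 and -0.17 in cells against ligation, cells against sham and ligation against sham). The median over the cardiomyocyte markers turned that ratio in cells against sham (0.11). mt-Atp6 in ligation against sham was -0.13 with the copy's counts added, mt-Co2 there was 0.01 with libraries of a shared column stem summed, and mt-Tp in cells against ligation was -0.0026 with those summed and -0.0201 with library totals.

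With no filter on low counts, 19 mitochondrial genes were tested among 25606 genes. Cells against ligation gave 7 higher and 5 lower against all genes (617 and 866 of all), and ligation against sham 1 higher (2888 of all). Relative to mitochondrial mRNA, 6 were lower in the former (1969 of all). In the latter, 5 were higher and 5 lower (11611 and 222 of all). Lower calls in cells against ligation, against all genes and relative, were 2 and 5 with 2-group fits, 0 and 0 with DESeq2, and 4 and 5 with stems summed, and 2 against all genes with library totals. Of all genes, the lower calls were 770 and 1774 of 13589, 618 and 1583 of 13825, 661 and 1383 of 14054, and 923 of 13825. Scaled to the geometric mean of the mitochondrial mRNAs, cells against ligation gave 0 higher and 4 lower, and ligation against sham 4 higher and 1 lower. Of all 13825 genes, 110 and 679 passed in the former, and 11163 and 141 in the latter. Relative calls higher in ligation against sham were 1 with DESeq2 and 4 with stems summed, and in cells against sham 1 with stems summed. Of all genes, 10814 of 13825, 10920 of 14054 and 9622 of 14054 were higher in these fits. With library totals, the nuclear lists gave, in ligation against sham, 43 lower (mitoribosomal), 7 higher and 5 lower (RNA processing), 3 and 2 (transcription) and 2 and 3 (translation); in cells against sham 7 and 5 (RNA processing), 5 and 0 (transcription) and 2 lower (translation); and in cells against ligation 2 higher and 1 lower (mitoribosomal) and 1 higher (RNA processing).

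With a replicate block, 2 mitochondrial genes were lower against all genes in cells against ligation, and 0 genes of the RNA processing and 0 of the transcription list were lower. Of all 13825 genes, 723 were lower in that fit. The numbers do not pair the libraries: correlations of same-numbered deviations were -0.121 to 0.133 for ligation against sham, -0.0428 to 0.0562 for cells against ligation and -0.0792 to -0.0276 for cells against sham, across 9414 genes. The low counts of mt-Atp8 and of the tRNAs other than mt-Tp limit what could be detected.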

Other observations

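Among the 9 mitochondrial mRNAs and rRNAs with no whole nuclear copy and enough counts, mt-Atp8 left out, the log2 difference between cells and ligation ran from -0.08 for mt-Nd6 to 0.30 for mt-Rnr2. Its Spearman rho with gene length was 0.817, the largest of those computed, across 9 genes, which share libraries and are not independent replicates. The rho was -0.133 with position on the chromosome, 0.317 with GC content and 0.251 with the share of 31-base words in nuclear transcripts. Without ligation replicate 1, mt-Nd6 was at 0.12 and mt-Rnr2 at 0.34, and the rho was not recomputed. For ligation against sham the same genes ran from -1.06 to -0.70, with a rho of 0.50 with length, 0.267 with position on the chromosome, 0.283 with GC content and 0.628 with the share of 31-base words that also occur in an annotated nuclear transcript. In cells against sham the rho was 0.75 with length, -0.0333 with position, 0.317 with GC content and 0.293 with the share of 31-base words.

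Counts assigned to the nuclear copies on chromosome 1 were also compared with the mitochondrial counts. Reads that match both a copy and its mitochondrial gene cannot be told apart in these counts. The 5 copies summed to 0.00720 ± 0.000164 counts (SD, n = 3) per count of the 8 other mitochondrial mRNAs in sham, 0.00539 ± 0.000548 in ligation and 0.00533 ± 0.000988 with cells. Sham did not overlap with either ligated group (exact p = 0.1, 0.15 after adjustment over 9 ratios), and these ratios were chosen after seeing the data.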
